A study of Mus musculus with 10 samples.

Results

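The 7 genes described here encode subunits of the GABA-A receptor: the alpha subunits Gabra2, Gabra3, Gabra4 and Gabra5, the beta subunits Gabrb1 and Gabrb2, and the delta subunit Gabrd. They were taken by gene symbol from 56884 genes counted in bulk RNA-seq of hippocampus, and all 7 were among the 17622 genes with enough reads to be tested. The animals were 10 ovary-intact female P301S mice, a tauopathy line also called PS19 that carries human mutant Tau driven by the mouse Prnp promoter on a mixed B6;C3 background. All 10 carried the transgene, so no mouse without it enters these values. From 6 months of age, 5 females carried a subcutaneous SILASTIC implant with 10 mm of dihydrotestosterone (DHT), an androgen that aromatase cannot turn into estrogen, and 5 carried the same implant without DHT (void). After 12 weeks, at 9 to 9.5 months, the mice were perfused and 1 library was made from the hippocampal tissue of each. The comparison asks how a raised androgen level acts in Tau transgenic females, and here it is read for the RNA of receptors for the main inhibitory transmitter of the brain.

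GABA-A receptors are chloride channels that GABA opens, and each is built of 5 subunits around a pore. Receptors with alpha2 or alpha3 and a gamma subunit sit mainly at inhibitory synapses, where they carry brief currents and bind benzodiazepines. In the hippocampus, receptors with alpha5, abundant in pyramidal cells, and receptors with alpha4 and delta, typical of dentate granule cells, lie largely outside synapses and carry a steady tonic current. Beta subunits form the GABA binding site together with an alpha subunit, and receptors that contain delta are known for their sensitivity to neurosteroids, among them metabolites of DHT.

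Every member belongs to the Cys-loop receptor family, named for a short loop closed by a pair of cysteines in the part outside the cell. The coding bases of this loop are shown because they let the alpha, beta and delta members be told apart at a glance. Each run is 45 bases, read 5′ to 3′ from the GENCODE M21 transcripts of GRCm38, and the capitals mark the first and the last codon, which both encode cysteine.
Gabra2: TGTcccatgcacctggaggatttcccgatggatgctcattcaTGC
Gabra3: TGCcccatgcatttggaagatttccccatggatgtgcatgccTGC
Gabra4: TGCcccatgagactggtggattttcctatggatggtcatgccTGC
Gabra5: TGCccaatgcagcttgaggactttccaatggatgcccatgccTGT
Gabrb1: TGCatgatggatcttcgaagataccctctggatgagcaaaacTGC
Gabrb2: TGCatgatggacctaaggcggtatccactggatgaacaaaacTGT
Gabrd: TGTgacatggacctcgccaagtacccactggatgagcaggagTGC
The 4 alpha members shared 34 to 36 of the 45 bases with each other, and Gabrb1 shared 35, or 77.8%, with Gabrb2. Gabrd was closer to the beta members, at 66.7% and 64.4%, than to the alpha members, at 55.6% to 62.2%. Over the whole coding sequences, the longest run of identical bases between any pair of members was 24 bases, in Gabra3 and Gabra5. In that annotation, Gabra2, Gabra4 and Gabrb1 are on chromosome 5, Gabra5 is on chromosome 7, Gabrb2 on chromosome 11, Gabrd on chromosome 4 and Gabra3 on the X chromosome. Gabra4 and Gabrb1 overlap by 46 exon bases on opposite strands, 0.76% of the exon length of Gabra4. Gabra5 overlaps the gene Gm9962 on the opposite strand by 148 exon bases, 4.98% of its exon length, and how strand was handled in counting is not given in the sources used here.

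The libraries held 27188854 to 47113661 counts in void females and 33523527 to 45947784 in DHT females, and each member had between 472 counts, for Gabrd, and 25137 counts, for Gabrb1, in a library. The tissue carried markers of the hippocampal fields, with Prox1, a granule cell factor, at 166 CPM (counts scaled to library size, with TMM factors), Wfs1, a CA1 marker, at 149 CPM and Grik4, a CA3 marker, at 64.7 CPM as void means. The summed level of 12 choroid plexus epithelium markers was 361 to 3269 CPM in void mice and 3908 to 5742 CPM in DHT mice, and that of 12 microglia markers was 479 to 589 CPM against 707 to 1112 CPM. The 12 pan-neuronal markers summed to 7936 to 8797 CPM in void mice and 6937 to 7849 CPM in DHT mice, so on all 3 lists the sums did not overlap between groups. The mean log2 CPM of the pan-neuronal list did overlap, with void mouse 4 at 8.78 and DHT mouse 5 at 8.81. In these bulk samples, fewer cells of a type and less RNA per cell cannot be told apart. The labels number all void libraries before all DHT libraries, and the effect of that order cannot be told apart from that of DHT.

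**Figure D1:**
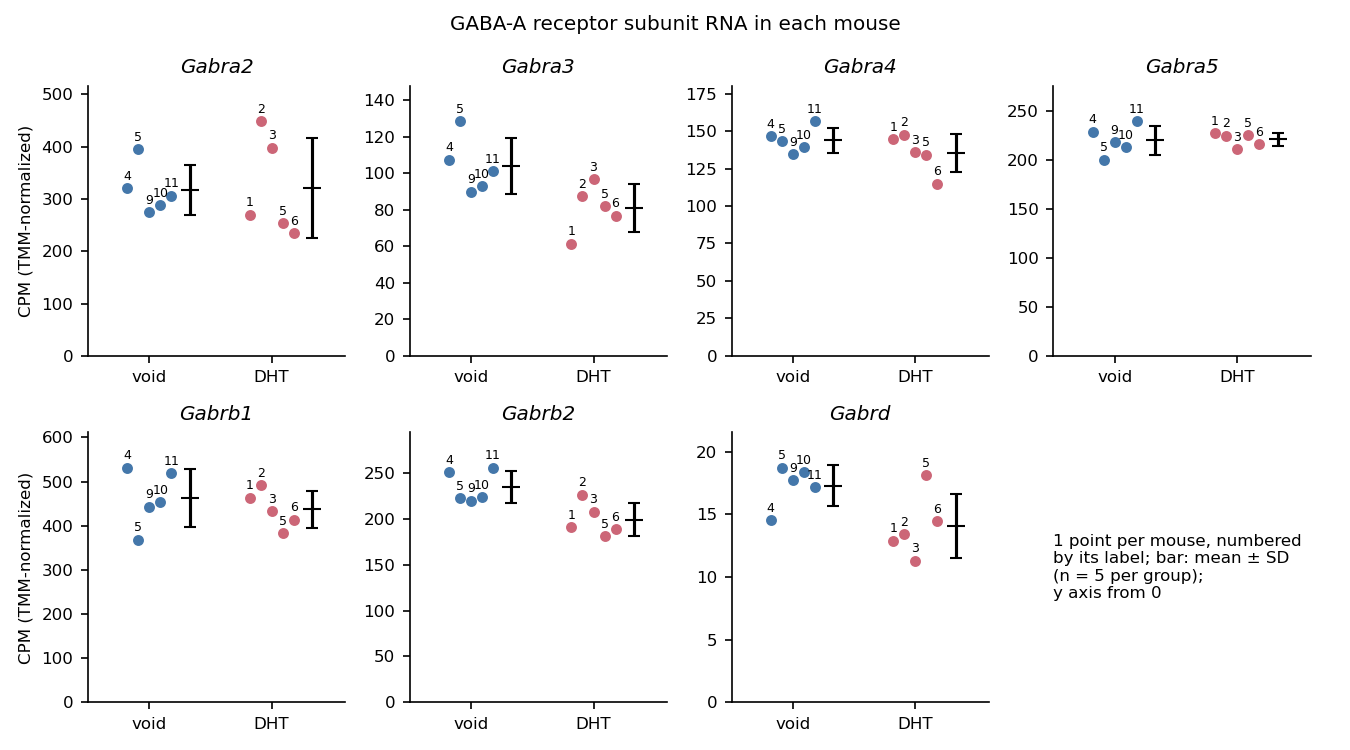
TMM-normalized CPM of each of the 7 subunit genes in each mouse (y axis from 0), with void females in blue and DHT females in red, numbered by mouse. Black bars give the mean ± SD of 5 mice. Gabra3, Gabrb2 and Gabrd sit lower in most DHT females but overlap with void, and Gabra2 spreads from 235 to 449 CPM within the DHT group.

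None of the 7 subunit genes passed edgeR's test between DHT and void, while 2 were called lower by DESeq2, the tool the study used. With edgeR's quasi-likelihood test, 0 members were called lower and 0 higher at an adjusted p under 0.05, where 0.261% of all tested genes were called lower and 5.22% higher. Gabra3, Gabrb2 and Gabrd had an unadjusted p under 0.05, all toward lower values in DHT females, against 4.22% of all genes with such a p and a lower value. In none of the 7 did every DHT mouse lie below or above every void mouse, which was the case for 0.88% of genes (below) and 5.39% (above). The members' median log2 fold change was -0.09, beside 0.01 over all tested genes, and 5 of 7 values were negative, beside 47.6% of all genes. By DESeq2, 2 members were called lower, Gabra3 at -0.39 on the log2 scale (adjusted p = 0.0413) and Gabrb2 at -0.26 (adjusted p = 0.0331), where DESeq2 called 1.07% of the 20917 genes it gave an adjusted p lower and 5.84% higher. No member came near a log2 fold change of 1, the limit used beside the adjusted p for these samples, and the one farthest from 0 was Gabra3 at -0.36.

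Scaled by exon length, the order of levels was led by Gabra5, the alpha subunit typical of hippocampal pyramidal cells, with 73.9 ± 5.06 CPM per kb (SD, n = 5) in void females. It lay above every other member in every mouse. Gabra2 followed with 41.5 ± 6.15, Gabrb2 with 36.8 ± 2.705, Gabrb1 with 33.5 ± 4.74, Gabra3 with 26.5 ± 3.91 and Gabra4 with 23.7 ± 1.37 CPM per kb. The ranges of neighbours in this middle stretch overlapped between void mice, and their order within single mice is not given here. Gabrd was lowest, at 6.02 ± 0.576 CPM per kb, below every other member in every mouse. In DHT females the order at both ends was the same, with Gabra5 at 74.3 ± 2.33 and Gabrd at 4.88 ± 0.888 CPM per kb. Between them the order of means changed, with Gabrb1 (31.6 ± 3.05) just above Gabrb2 (31.3 ± 2.84) and Gabra4 (22.3 ± 2.09) above Gabra3 (20.6 ± 3.35). Exon lengths came from an annotation whose gene identifiers carry older versions than those of the counts, so these levels are approximate.

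Among the synaptic alpha subunits, Gabra2 differed far more between mice than between groups. Its level was 320, 396, 275, 288 and 307 CPM in void mice 4, 5, 9, 10 and 11. In DHT mice 1, 2, 3, 5 and 6 it was 270, 449, 398, 253 and 235 CPM. The highest values were those of DHT mice 2 and 3 and void mouse 5, and 3 of 5 DHT mice were below the lowest void mouse. The means were 317 ± 47.004 and 321 ± 95.9 CPM (SD, n = 5 each), which gave a log2 fold change of 0.02 (SE 0.18, 95% interval -0.39 to 0.42, adjusted p = 0.980, edgeR). Within the DHT group, the SD of its log2 CPM was 0.42, larger than that of 99.4% of 2453 genes with a mean of at least 100 CPM in each group. In void mice its SD of 0.20 was larger than that of 92.1% of the same genes.

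Gabra3, the X-linked alpha subunit, had the largest difference of the 7 on the log2 scale. It stood at 108, 128, 89.9, 92.9 and 101 CPM in void mice 4, 5, 9, 10 and 11. DHT mice 1, 2, 3, 5 and 6 had 61.5, 87.5, 96.8, 81.9 and 76.7 CPM. All 5 DHT mice were below the void median and 4 of 5 were below the lowest void mouse, with DHT mouse 3 inside the void range. The mean went from 104 ± 15.4 to 80.9 ± 13.2 CPM (SD, n = 5 each), with a log2 fold change of -0.36 (SE 0.12, 95% interval -0.65 to -0.08, adjusted p = 0.124, edgeR). The exact permutation test of this gene alone gave p = 0.0317, two-sided and unadjusted, where 5 against 5 mice can reach 0.00794 at the lowest. DHT mouse 1, which had the lowest Gabra3, also had the lowest summed pan-neuronal markers of all 10 mice at 6937 CPM and the highest microglia markers at 1112 CPM. Their part in the Gabra3 value was not tested, and without DHT mouse 1 the log2 fold change was -0.31 (adjusted p = 0.197, edgeR).

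Among the extrasynaptic alpha subunits, neither gene differed between groups beyond its spread. Gabra4, the partner of delta in dentate granule cells, was at 147, 143, 134, 139 and 157 CPM in void mice 4, 5, 9, 10 and 11. In DHT mice 1, 2, 3, 5 and 6 it was at 145, 147, 136, 134 and 115 CPM. DHT mouse 6 had the lowest value, DHT mouse 5 lay just under the void range and the other 3 DHT mice lay inside it. The log2 fold change was -0.09 (SE 0.07, 95% interval -0.25 to 0.08, adjusted p = 0.609, edgeR).

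Gabra5 varied least of the 7 within the DHT group, while Gabra4 varied least within the void group. The level of Gabra5 level was 229, 200, 218, 213 and 239.5 CPM in void mice 4, 5, 9, 10 and 11. In DHT mice 1, 2, 3, 5 and 6 it was 227, 225, 211, 225 and 216 CPM, all inside the void range. The DHT group's SD of log2 CPM was 0.05, and only 3.42% of the 2453 genes of at least 100 CPM had a smaller one, where the void group's SD of 0.10 was larger than that of 50.1% of them. The log2 fold change was 0.01 (SE 0.06, adjusted p = 0.978, edgeR), with a 95% interval from -0.12 to 0.14.

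Of the beta subunits, Gabrb2 had the lowest p of the 7 members. Gabrb2 was at 250.5, 223, 219.5, 223 and 255 CPM in void mice 4, 5, 9, 10 and 11. DHT mice 1, 2, 3, 5 and 6 had 191, 226, 208, 181 and 189 CPM. Only DHT mouse 2 reached the void range, and the other 4 DHT mice were below every void mouse. The mean went from 234 ± 17.2 to 199 ± 18.1 CPM (SD, n = 5 each), 15.1% lower, with a log2 fold change of -0.24 (SE 0.07, adjusted p = 0.0872, edgeR) and an exact permutation p of 0.0317 (two-sided, unadjusted). Without DHT mouse 2, the adjusted p was 0.0320 and the log2 fold change was -0.29 (edgeR). The other fits that left out 1 mouse gave adjusted p values from 0.0812 to 0.207 (edgeR).

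Gabrb1, which shares its stretch of chromosome 5 with Gabra2 and Gabra4, had the most counts of the 7. It was at 531, 369, 443, 453 and 520 CPM in void mice 4, 5, 9, 10 and 11. In DHT mice 1, 2, 3, 5 and 6 it was at 464, 492, 433, 384 and 414 CPM, all inside the void range. Void mouse 5 was the lowest of all 10. The log2 fold change was -0.08 (SE 0.10, 95% interval -0.31 to 0.15, adjusted p = 0.754, edgeR).

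Gabrd, the delta subunit of neurosteroid-sensitive receptors, was the least abundant member. It was at 14.5, 18.7, 17.7, 18.4 and 17.2 CPM in void mice 4, 5, 9, 10 and 11. DHT mice 1, 2, 3, 5 and 6 had 12.9, 13.4, 11.3, 18.1 and 14.4 CPM. DHT mouse 5 was the exception among the DHT females, and void mouse 4 was the lowest of its group, so the groups overlapped. The mean went from 17.3 ± 1.66 to 14.04 ± 2.55 CPM (SD, n = 5 each), with a log2 fold change of -0.30 (SE 0.12, 95% interval -0.58 to -0.02, adjusted p = 0.208, edgeR) and an exact permutation p of 0.0476 (two-sided, unadjusted). Of the fits that left out 1 mouse, only that without DHT mouse 5 called it, at -0.45 (adjusted p = 0.0339, edgeR). The other such fits gave adjusted p values from 0.166 to 0.354 (edgeR). The 12 dentate granule cell markers, the cells in which delta is typical, summed to 911 to 1331 CPM in void mice and 909 to 1236 CPM in DHT mice, and 0 of the 12 were called by edgeR or DESeq2, with 0 at an unadjusted p under 0.05.

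**Figure D2:**
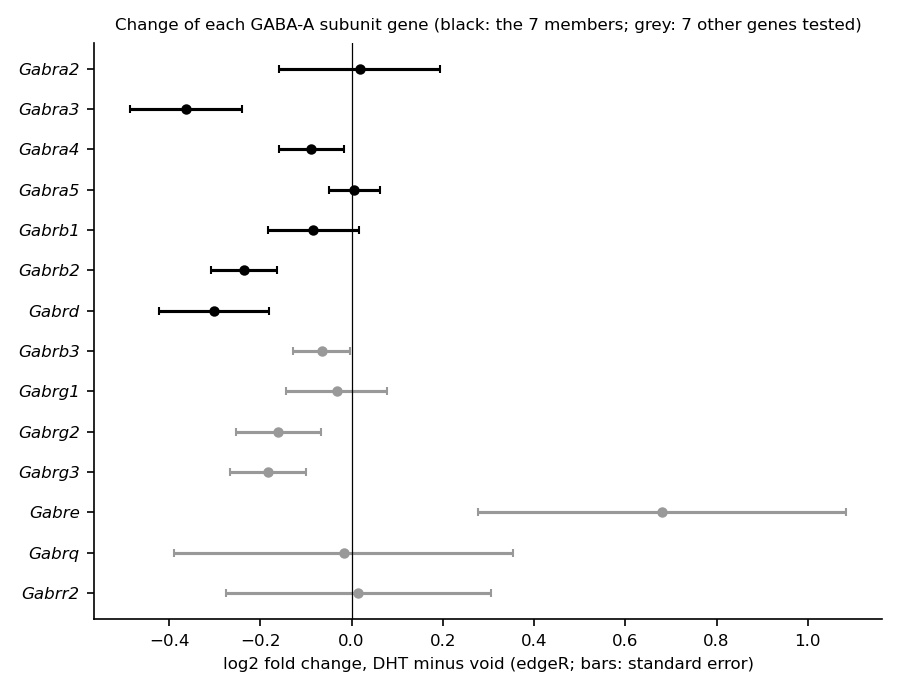
Log2 fold change of DHT minus void (x axis) with its standard error for the 7 members (black) and for 7 other GABA-A subunit genes that were tested (grey), from edgeR. The members run from -0.36 for Gabra3 to 0.02 for Gabra2, and the wide bars belong to Gabre, Gabrq and Gabrr2, whose levels were near 1 CPM or less.

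The members' values depended on how libraries were scaled. When libraries were scaled on the summed counts of the pan-neuronal markers in place of all genes, the median of all genes moved from 0.01 to 0.14 and that of the members from -0.09 to 0.05. On that scaling Gabra4 and Gabrb1 turned to positive values of 0.05 each, while Gabra3 stayed at -0.23, Gabrd at -0.17 and Gabrb2 at -0.10, all with an adjusted p over 0.05 (0.206, 0.358 and 0.458). With the choroid plexus markers as a covariate, Gabra3 was at -0.12, Gabrb2 at -0.19 and Gabrd at -0.18, while Gabra2 went to 0.25 and Gabrb1 to -0.16. Gabra4 was at -0.0082 and Gabra5 at -0.0034 in that fit, the members' median was -0.12, and edgeR called 0 of all 17622 genes in either direction. In the TMM-scaled fit, the 12 pan-neuronal markers were all negative, with a median of -0.10 and 0 called by edgeR or DESeq2. Of these markers, 3 had an unadjusted p under 0.05, beside 4.22% of all genes with such a p and a lower value.

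**Figure D3:**
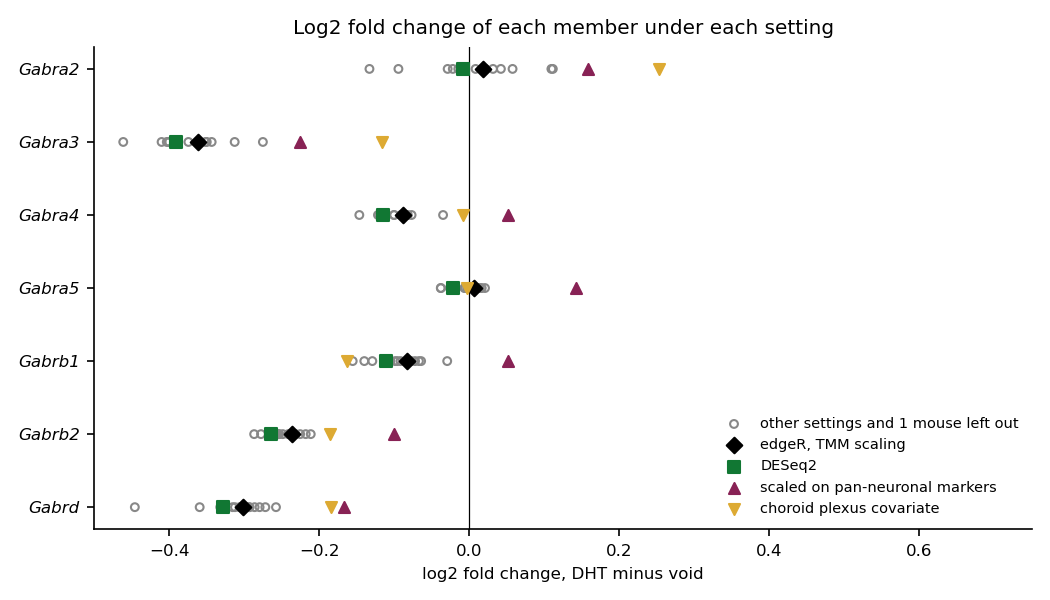
Log2 fold change of DHT minus void (x axis) for each member under each way of processing, with edgeR after TMM scaling as black diamonds. Grey circles stand for the other settings and for fits without 1 mouse each. Gabra3, Gabrb2 and Gabrd were negative in every fit shown, while Gabra2, Gabra4, Gabra5 and Gabrb1 fell on both sides of 0.

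Ratios between subunits in the same mouse do not depend on library scaling, and 4 were compared by two-sided exact permutation tests, adjusted over the 4. None passed. The log2 ratio of Gabra2 to Gabra3 was nearly constant in void females, at 1.57, 1.62, 1.61, 1.63 and 1.598 in mice 4, 5, 9, 10 and 11. It was 1.63 and 1.62 in DHT mice 5 and 6, but 2.13, 2.36 and 2.04 in DHT mice 1, 2 and 3. The difference between groups was 0.35 (exact permutation p = 0.0476, adjusted p = 0.0952).

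The same 3 DHT females stood apart for Gabra4 to Gabrd, the pair that forms tonic receptors in granule cells. This log2 ratio was 3.48, 3.45 and 3.58 in DHT mice 1, 2 and 3, against 2.88 and 2.99 in DHT mice 5 and 6. In void mice 4, 5, 9, 10 and 11 it was 3.33, 2.93, 2.92, 2.92 and 3.18. The groups differed by 0.22 (exact permutation p = 0.206, adjusted p = 0.206), and by 0.14 without DHT mouse 3. DHT mice 1, 2 and 3 also had the 3 largest libraries of their group, with 36379142, 40400386 and 45947784 counts. The largest library of all, with 47113661 counts, was that of void mouse 4. Its log2 ratio was 3.33 for Gabra4 to Gabrd, the highest of the void mice, and 1.57 for Gabra2 to Gabra3, the lowest of them. The part of depth was not tested.

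Gabrb2 to Gabrb1 had a log2 ratio of -1.28, -1.12, -1.06, -1.08 and -1.13 in DHT mice 1, 2, 3, 5 and 6. In void mice 4, 5, 9, 10 and 11 it was -1.08, -0.73, -1.01, -1.02 and -1.02, so void mouse 4 lay inside the DHT range. The difference was -0.16 (exact permutation p = 0.0238, adjusted p = 0.0952). It passed the threshold without void mouse 4 (-0.19, adjusted p = 0.0317) and without DHT mouse 5 (-0.17, adjusted p = 0.0476), and shrank to -0.10 without void mouse 5 (adjusted p = 0.159), all by exact permutation. Gabra5 to Gabra4 ran from 0.48 to 0.70 in void mice and from 0.61 to 0.91 in DHT mice, a difference of 0.10 (exact permutation p = 0.175, adjusted p = 0.206) that was 0.05 without DHT mouse 6.

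**Figure D4:**
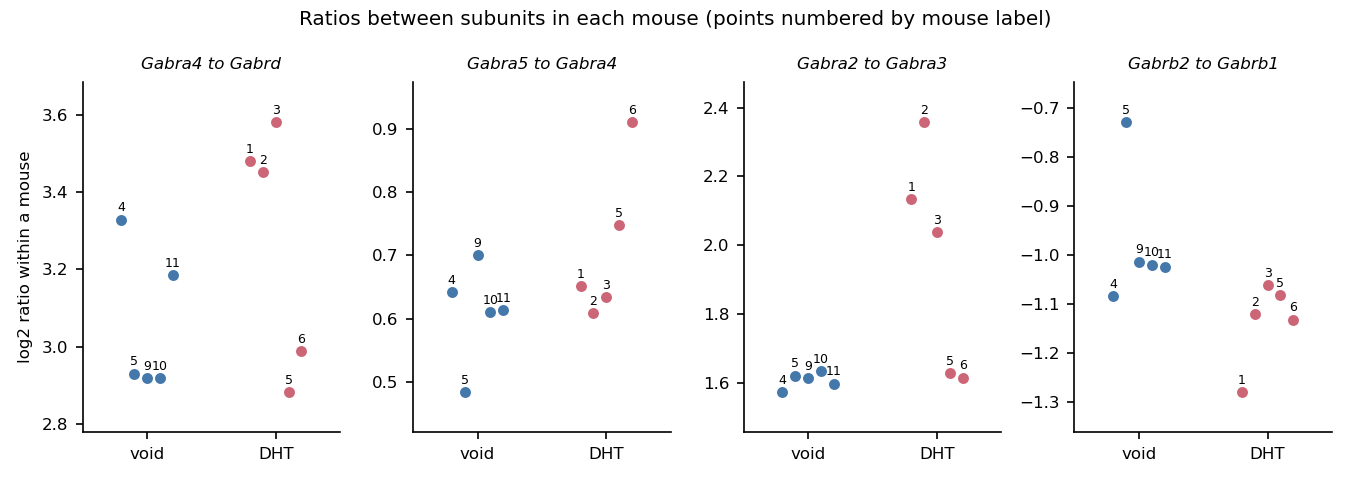
Log2 ratio between the CPM of subunit genes within each mouse (y axes, not from 0), void in blue and DHT in red, numbered by mouse. For Gabra2 to Gabra3, the 5 void mice lie between 1.57 and 1.63, and DHT mice 1, 2 and 3 lie above 2.

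Once group means were removed, members varied together only in part across the 10 mice, and these correlations of log2 CPM are a description over libraries that share 1 scaling. The highest Pearson r among members was 0.77, between the beta subunits Gabrb1 and Gabrb2, followed by 0.76 for Gabra5 and Gabrb1 and 0.71 for Gabra2 and Gabra3. Gabrd went the other way from both beta subunits, with r = -0.63 for each. Among all tested genes, the 3 closest to Gabra2 were Ttc39b (0.98), Zmat1 (0.95) and Gm26679 (0.95). For Gabra3 they were Mfsd2b (0.97), Cd200, a neuronal surface ligand that restrains microglia (0.96), and Pgrmc1, a heme-binding membrane protein (0.95). Gabra4 was closest to Anp32a (0.97), Utp14a (0.97) and Hpf1 (0.97). Gabra5 was closest to Ptpra, a receptor tyrosine phosphatase (0.94), Armh3 (0.93) and Kcnd2, a potassium channel of A-type currents in dendrites (0.92). Gabrb1 had the highest values of all, with the kinase gene Braf (0.99), Arl15 (0.99) and the histone methyltransferase gene Ash1l (0.98). Gabrb2 was closest to Fzd3, a Wnt receptor (0.96), Chl1, a neural adhesion molecule (0.95), and Usp15, a deubiquitinase (0.94), and Gabrd to Phactr3 (0.97), R3hcc1 (0.96) and Espn (0.95). Each of these was picked as the highest of 17622 genes over only 10 mice. Gm26679 and Mfsd2b had few reads, with void means of 0.81 and 0.47 CPM.

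In the wider GABA system, 54 of 59 listed genes in 5 lists were tested, and edgeR called 1 lower and 2 higher. Over all tested genes, edgeR called 0.261% lower and 5.22% higher, and DESeq2 called 1.07% lower and 5.84% higher. An unadjusted p under 0.05 with a lower value was found for 4.22% of all genes in edgeR. Of the other GABA-A subunit genes, 8 of 12 were tested and 0 were called by edgeR or DESeq2, with 1 at an unadjusted p under 0.05. That gene was Gabrg3, a gamma subunit, at 45.8 CPM in void and 40.3 CPM in DHT mice (-0.18 on the log2 scale, adjusted p = 0.285, edgeR). Gabra6, Gabrp, Gabrr1 and Gabrr3 had too few counts to be tested.

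Of the proteins that anchor, traffic or assist the receptor, 21 of 22 listed genes were tested and 0 were called by edgeR or DESeq2, with 2 at an unadjusted p under 0.05. Gabarap, an adaptor for intracellular receptor transport, was at 0.16 on the log2 scale (adjusted p = 0.0986, edgeR) and was higher in every DHT mouse than in every void mouse. On the pan-neuronal scaling Gabarap was called at 0.30 (adjusted p = 0.0163, edgeR), where 1940 of all 17622 genes were called higher. With TMM scaling, where Gabarap was not called with all mice, it was also called in 0 of the 10 fits that left out 1 mouse. On the pan-neuronal scaling no mouse was left out. Of 9 genes for GABA synthesis, loading, uptake and breakdown, 0 were called by either tool and 1 had an unadjusted p under 0.05. This was Aldh5a1, the last enzyme of GABA breakdown, at -0.14 (adjusted p = 0.177, edgeR), and Gad1, which makes GABA, was at -0.12 (adjusted p = 0.472, edgeR). The 12 inhibitory interneuron markers summed to 575 to 628 CPM in void mice and 435 to 589 CPM in DHT mice, with 0 called by either tool and 2 at an unadjusted p under 0.05.

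In the GABA-B list, the metabotropic receptor and its effectors, 1 of 8 genes was called lower by edgeR and 2 by DESeq2. Over all genes, these shares were 0.261% and 1.07%. In edgeR, 3 of the 8 had an unadjusted p under 0.05, all toward lower values, beside 4.22% of all genes. Kcnj9, a subunit of the potassium channels that GABA-B receptors open, fell from 92.3 to 69.3 CPM (log2 fold change -0.41, SE 0.11, adjusted p = 0.0409, edgeR), although the groups overlapped. The call was lost in 8 of the 10 fits that left out 1 mouse, those without void mouse 5, 9, 10 or 11 or DHT mouse 1, 2, 3 or 6, with adjusted p values up to 0.0913, and it was also lost on the pan-neuronal scaling (adjusted p = 0.0625). Kctd8, an auxiliary subunit, was at -0.38 by edgeR (adjusted p = 0.128) and was called lower by DESeq2 at -0.40 (adjusted p = 0.0393). Kcnj3, another channel subunit, was at -0.13 (adjusted p = 0.261, edgeR).

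In the chloride transport list, which sets the driving force of GABA-A currents, 2 of 8 genes were called higher and 0 lower. Of all tested genes, edgeR called 5.22% higher and 0.261% lower. Slc12a2, the chloride importer NKCC1, rose from 136 to 221 CPM (log2 fold change 0.70, SE 0.13, adjusted p = 0.0115, edgeR). Stk39, the kinase SPAK that activates it, rose from 95.2 to 139 CPM (0.54, SE 0.09, adjusted p = 0.00761, edgeR). For both genes every DHT mouse was above every void mouse, and both calls held in all 10 fits without 1 mouse. The neuronal chloride exporter Slc12a5 (KCC2), chosen here after its value was seen, was at -0.10 on the log2 scale (adjusted p = 0.738, edgeR). Choroid plexus epithelium also expresses Slc12a2, and its markers were higher in DHT mice as given above. With these markers as a covariate, Slc12a2 was at 0.32 (adjusted p = 0.760, edgeR) and Stk39 at 0.31 (adjusted p = 0.624, edgeR). That fit called 0 of all 17622 genes in either direction, and the part of choroid plexus in these values was not tested.

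**Figure D5:**
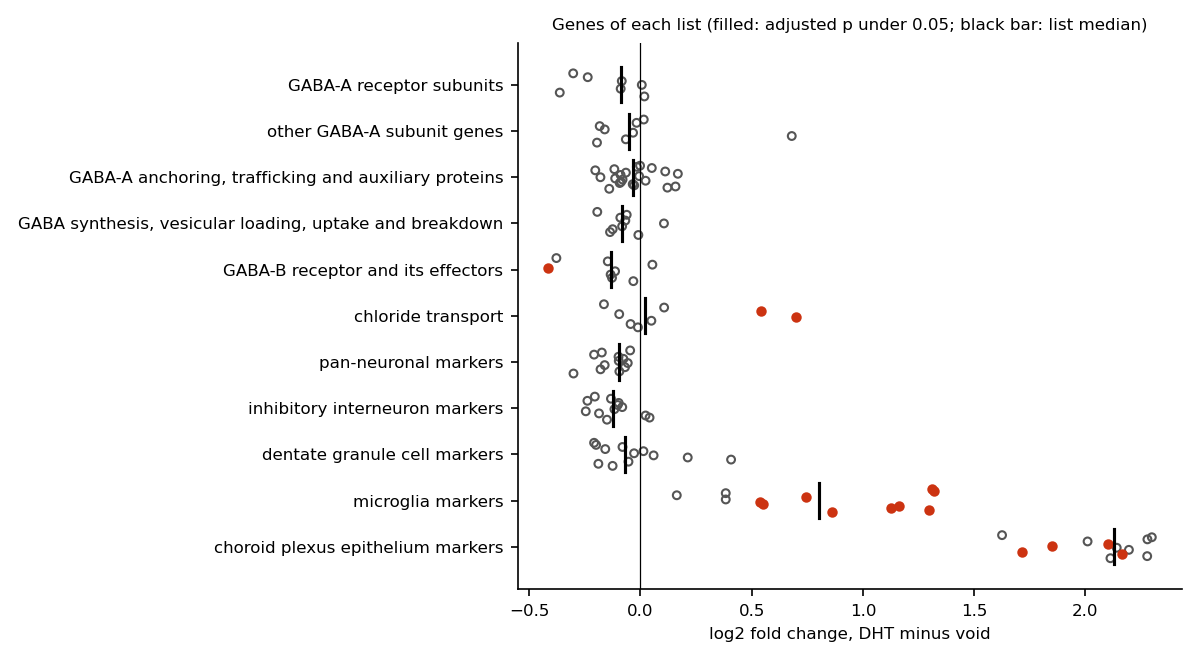
Log2 fold change of DHT minus void (x axis) for every tested gene of the GABA lists and of 5 marker lists, with list medians as black bars. Filled red points passed edgeR's test: Kcnj9 to the left, Slc12a2 and Stk39 to the right, 9 microglia and 4 choroid plexus markers.

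Promoter windows were searched for core motifs of steroid and orphan nuclear receptors, since the study concerns an androgen and the nuclear receptor TR4. RefSeq windows (GRCm38.p6, 250 bases before to 50 after a start) were found for 6 members, 10 windows in all, some of them overlapping. The hormone response motif AGGTCA, read on both strands, was in 0 of the 10 windows, beside 16.3% of 32851 windows of the same length. The core AGAACA of androgen response elements, read on both strands, was in 2 of the 10 windows, both of Gabrb2, beside 6233 of the 32851 windows. These matches describe letters only, and no binding was measured in these samples.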

How the data were processed

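RNA-seq of hippocampus from 5 void and 5 DHT female P301S mice was used, with 1 library per mouse and groups taken from the sample labels. The deposited values are raw counts for each gene. The authors cleaned reads with HTStream, aligned them with STAR 2.7.10b and compared the groups with DESeq2 1.42.0. The methods name mm10 and the submitters' processing notes name mm39, so no coordinates of the counts are given. The counting tool, annotation release and strand setting are not given in the sources used here. GENCODE M21 (GRCm38) served for symbols, neighbours and exon lengths.

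The deposited counts went into edgeR 4.0.16 (R 4.3.3) with TMM scaling and its expression filter by group, which left 17622 genes. Its quasi-likelihood test was run on all of them, p-values were adjusted after Benjamini-Hochberg, and calls were made at an adjusted p under 0.05. The standard error of a log2 fold change is its size over the square root of the test's F. The 95% intervals were derived from it with a t distribution of fewer degrees of freedom than the test's, so they are wider than its p-values imply. Log2 CPM used a prior count of 2. On simulated data for DHT against void with 17439 genes, 200 of them changed by a log2 fold of 1, edgeR recovered 99% with 4.35% of its calls false. The changed genes were drawn from those above a minimum level, and changes as small as those of the members were not simulated. Alternatives were DESeq2 1.42.0, other scalings, filters, dispersions and prior counts, a choroid plexus covariate, and leaving out each mouse in turn.

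The 7 members and all gene lists were chosen with earlier results of these data known. Named were all members, in each GABA list the called genes (at most 5 a direction) or otherwise the 2 genes of lowest p, defining markers, and for each member the 3 genes of highest group-centred Pearson r. Some listed genes were named beyond this rule to say that they were not tested, and the results for 2 genes of the rule are not reported here. The coding sequence was the longest open reading frame of each gene's protein-coding transcripts.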

Additional observations from a re-analysis of the deposited data

Results flagged for a closer look

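1 of 22 groups of 5 mice examined held a value far from its neighbours, where chance gives about 1.1. The log2 ratio of Gabrb2 to Gabrb1 in void mouse 5 was -0.73, the highest of its group, and its gap to the next void mouse took up 0.801 of the group's range, above the limit of 0.71. This mouse had the lowest Gabrb1 of all 10 mice, at 369 CPM, with Gabrb2 at 223 CPM. Its choroid plexus markers summed to 389 CPM, its astrocyte markers to 8053 CPM and its pan-neuronal markers to 8797 CPM, and their part in the ratio was not tested. Without it, the difference between the groups was -0.10 (adjusted p = 0.159, exact permutation).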

How the results depend on the processing

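No paired analysis was run, because the sources used here do not say which void and DHT mice were littermates. The count of members called lower was 0 by edgeR and 2 by DESeq2, which called 224 of 20917 genes lower where edgeR called 46 of 17622, and it ranged from 0 to 1 when 1 mouse was left out. The 1 member was Gabrb2 without DHT mouse 2 and Gabrd without DHT mouse 5. Genes of the 5 GABA lists called lower numbered 1, but 2 by DESeq2 and 0 on the pan-neuronal scaling, with the choroid plexus covariate or with a log2 fold limit of 1, and 0 to 1 when 1 mouse was left out. Those called higher numbered 2, but 3 with Gabarap on the pan-neuronal scaling, and 0 with the choroid plexus covariate or the fold limit. On the pan-neuronal scaling, 1940 of all 17622 genes were called higher. The covariate fit called 0 genes in all and the limit is stricter by construction; the cause of the other shifts was not tested.

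Values that changed sign belonged to Gabra2, Gabra4, Gabra5 and Gabrb1. The one farthest from 0 was that of Gabra2 without DHT mouse 2, at -0.13. The log2 fold change of Gabra2 was -0.0083 by DESeq2 and -0.0076 by edgeR on the size factors of DESeq2, and lay between -0.13 and 0.11 with 1 mouse left out. That of Gabra5 was -0.021 by DESeq2, -0.021 by edgeR on those size factors, -0.0066 without a filter, -0.0034 with the choroid plexus covariate, and between -0.038 and 0.021 with 1 mouse left out. On the pan-neuronal scaling Gabra4 was at 0.052 and Gabrb1 at 0.051. With 1 mouse left out, the ratio of Gabra2 to Gabra3 differed by 0.25 to 0.43 and passed without DHT mouse 5 (0.43, adjusted p = 0.0476, exact permutation), and that of Gabrb2 to Gabrb1 differed by -0.19 to -0.10. Scaling by library size alone took the exact permutation p of Gabra3 and Gabrb2 from 0.0317 to 0.0556. Of 260 recomputed values, 215 kept direction and side of the threshold or, for counts, stayed near the first count, 17 counts moved further, 19 values changed sign, 7 gained a call and 2 lost one. Gabrd had the fewest counts of the members, with 472 to 688 per library, and the part of depth in its values was not tested.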
